A study of Mus musculus with 20 samples.

Results

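The genes described here encode the subunits of the hypoxia-inducible factors (HIFs) and the proteins that sense oxygen for them. They are *Hif1a*, *Epas1*, *Hif3a*, *Arnt*, *Egln1*, *Egln2*, *Egln3*, *Hif1an* and *Vhl*, taken by name from a table of 23420 genes. The rule used no measured value, though earlier results of these data were known when the genes were chosen. Of these 9 genes, 9 passed the filter of at least 1 CPM (a count scaled to library size) in at least 10 mice, as did 13590 genes in all. Poly(A)-selected mRNA from whole hearts was sequenced in 10 male wild type C57BL/6 mice (C57BL/6J in the study's methods) on a control diet and 10 on an iron-deficient diet, which become anemic and are called IDA mice. Both groups were 9 weeks old, had received their diet for 6 weeks from 3 weeks of age, and the diet is the only factor that the labels vary. The iron content of the deficient diet is given as below 2 ppm in one label and above 2 ppm in another. Since the study excluded a contaminated sample per group but its text does not say which, no mouse was dropped here and 20 were compared. The counted read pairs came to between 6682177 and 8960688 for each heart. Depth differed with the diet, with a median of 7902932 in control and 6806177 in IDA hearts, though the ranges overlapped.

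HIF is a transcription factor made of an oxygen-regulated alpha subunit and a stable beta subunit. In the presence of oxygen, prolyl hydroxylases that need iron and 2-oxoglutarate modify the alpha subunit, the VHL protein binds the modified form, and the alpha subunit is ubiquitinated and degraded. An asparaginyl hydroxylase, encoded by *Hif1an*, separately blocks the binding of coactivators. Low oxygen or low iron slows these enzymes, so that the alpha protein is controlled mainly by its stability and not by its mRNA, which is the quantity measured here.

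HIF binds short DNA elements with the core ACGTG. Stretches of 45 bases around this core, all upstream of the annotated start, are shown for the 4 genes of the group in which it was found, as context for the prolyl hydroxylase mRNAs described below. They are taken from RefSeq (mouse build GRCm38.p6), read 5′ to 3′ on the strand of the gene, with the core in capitals.
Egln1, chr8:124949298-124949342, minus strand: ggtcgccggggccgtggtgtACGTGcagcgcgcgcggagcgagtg
Egln2, chr7:27166826-27166870, minus strand: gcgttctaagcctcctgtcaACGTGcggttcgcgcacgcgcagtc
Egln3, chr12:54204079-54204123, minus strand: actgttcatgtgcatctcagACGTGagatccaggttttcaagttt
Hif1a, chr12:73907713-73907757, plus strand: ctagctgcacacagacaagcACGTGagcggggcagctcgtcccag
Hif1a, chr12:73907777-73907821, plus strand: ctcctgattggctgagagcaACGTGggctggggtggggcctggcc
The core began 68 bases upstream of the start in *Egln1*, 48 in *Egln2*, 229 in *Egln3*, and 134 and 70 in *Hif1a*. The first of the 2 cores in *Hif1a* lies within CACGTG, which reads the same on both strands. The window of *Egln2* also held a CACGTG, which is not shown because it does not lie wholly upstream of the start. Both strands were searched from 250 bases before to 50 bases after each start. At least 1 core was present in 4 of the 8 genes of the group with such a window, in 5886 of all 27025 genes with a window (21.8%), and in 26 of 40 listed HIF targets (65%). No ACGTG was found in the windows of *Arnt*, *Hif3a*, *Hif1an* and *Vhl*. *Epas1* had no window. These are matches of letters and not measured binding sites.

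Before any correction for gene length, the mRNA of all 3 alpha subunits, the beta subunit and the asparaginyl hydroxylase was lower in IDA hearts, while that of the prolyl hydroxylases *Egln2* and *Egln3* and of *Vhl* was higher. *Egln3* had the largest rise, from 158.2 to 264 CPM. Thus 3 of the 9 genes were called higher, 5 lower and 1 was not called, by edgeR's quasi-likelihood test with a Benjamini-Hochberg adjusted p below 0.05 over all 13590 tested genes. Calls were common in this comparison. Of all tested genes, 67.5% were called, 35.0% higher and 32.5% lower, so a count of calls does not set these genes apart. The median log2 fold change was -0.34 over the 9 genes and 0.02 over all tested genes. The values of each heart and the fold changes follow in the plots of CPM by heart and of change by gene.

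**Figure D1:**
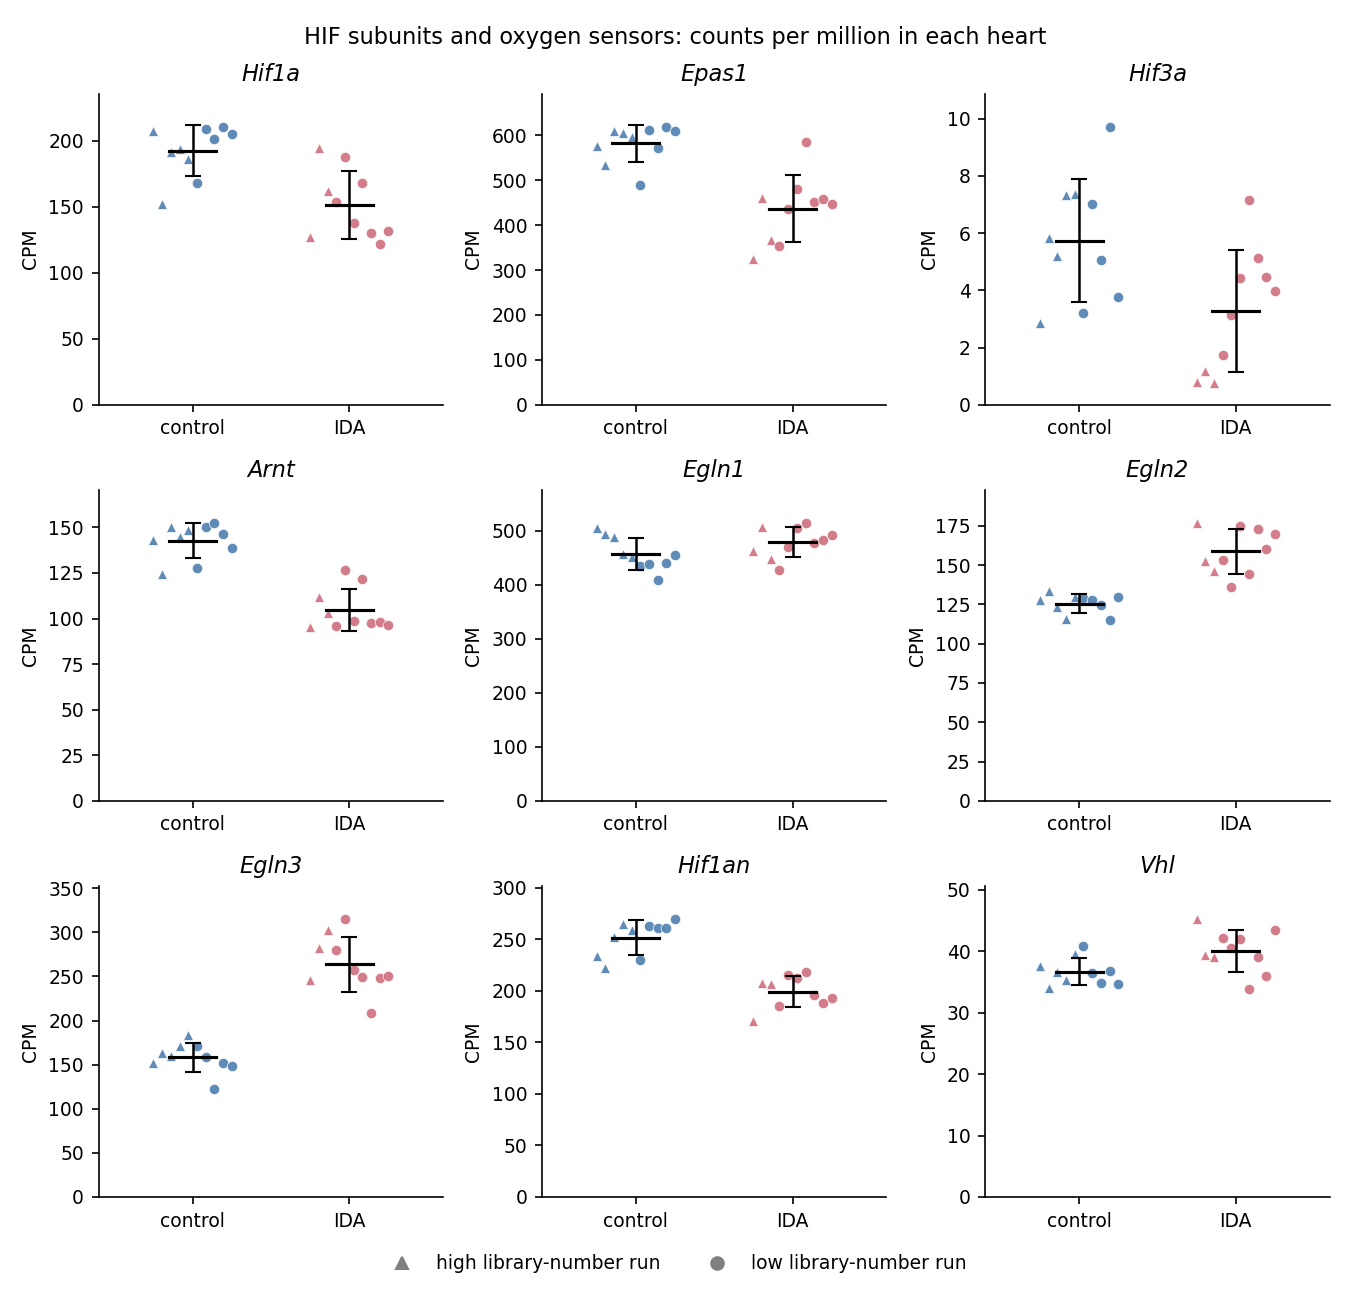
CPM of each gene (y axis, from 0) in each of 10 control and 10 IDA hearts, with the mean and SD as black bars. Triangles mark hearts of the high library-number run and circles those of the low run. For *Egln2*, *Egln3* and *Hif1an*, no IDA heart lies within the range of the control hearts in these uncorrected values. The share of all tested genes without such overlap was not counted. A lack of overlap, here or below, therefore does not set a gene apart. With the gene length correction described below, 10 IDA hearts for *Egln3* and 9 for *Egln2* were above all controls, and *Hif1an* overlapped.

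Fold changes in these libraries varied with the exonic length of the gene, and this bears on most of the group. Over all tested genes, the median log2 fold change fell from 0.35 in the shortest bin of genes (median length 690 bp) to -0.62 in the longest. The slope of a heart's log2 values on log2 gene length lay between 0.0205 and 0.199 in control hearts and between -0.254 and -0.0252 in IDA hearts, with no overlap. Whether this trend arose in the libraries or in the tissue cannot be told apart here, since it separates the diets. A second fit therefore removed a smooth trend on length from each heart, and is called the gene length correction. With it, 54.1% of all tested genes were called, 24.6% higher and 29.5% lower. Of the 9 genes, 3 were then called higher (*Egln1*, *Egln2* and *Egln3*), 1 lower (*Arnt*) and 5 were not called, with a median log2 fold change of 0.002 against -0.02 over all tested genes.

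**Figure D2:**
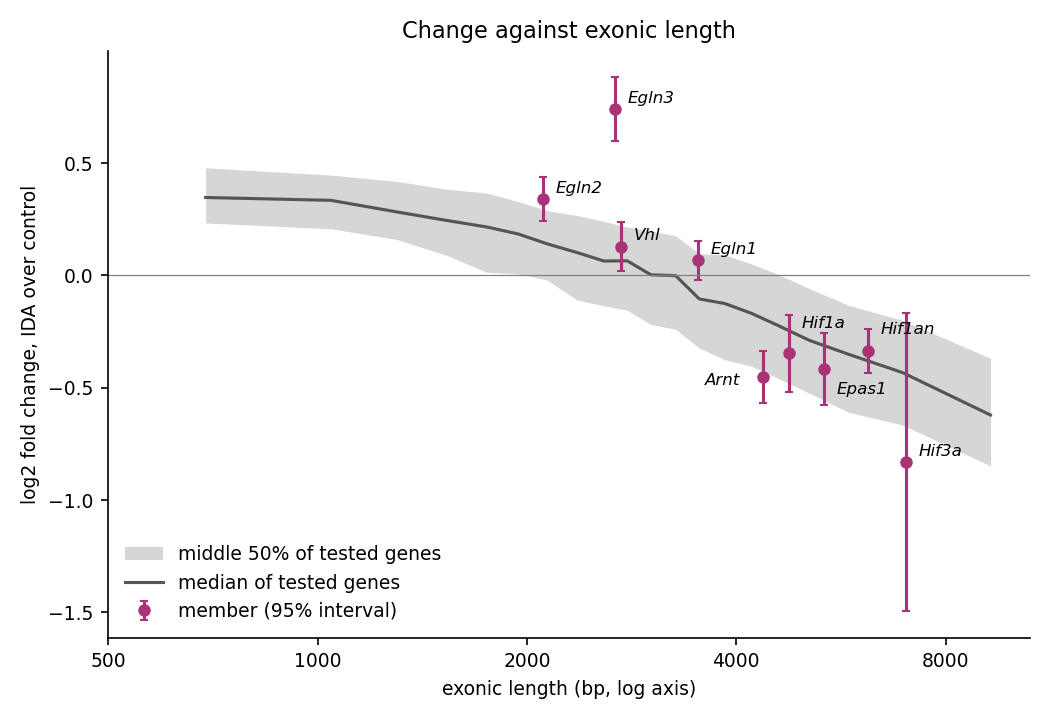
Log2 fold change (IDA over control, y axis) against exonic length on a log axis. The line and band give the median and middle 50% of all tested genes, and points give the 9 genes with 95% intervals. The points of *Egln3* (0.74) and *Egln2* (0.34) lie above the band and that of *Hif3a* (-0.83) below it. *Arnt* (-0.45) lies just below the lower edge of the band and *Hif1an* (-0.34) slightly above the median line.

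*Hif1a* encodes HIF-1α, the most widely expressed alpha subunit. The gene lies on the plus strand of chromosome 12 from 73907867 to 73947530 in mm10, with 15 exons and 4761 bp of exonic sequence. Its level was lowest at 152.4, with a median of 197.8 and a maximum of 210.6 CPM, in control hearts, and lowest at 121.9, with a median of 145.8 and a maximum of 194.4 CPM, in IDA hearts. The groups overlapped, with 9 of 10 IDA hearts below the control mean and 5 below the lowest control. The means were 192.6 ± 19.2 and 151.4 ± 25.9 CPM (SD, n = 10 each), and the log2 fold change was -0.35 (standard error, SE, 0.08, adjusted p = 0.000735, edgeR). The length trend at 4761 bp was -0.22 by itself. After the gene length correction this became -0.13 (adjusted p = 0.0957, edgeR) and the gene was not called. Exons of *Hif1a* share 330 bp with the antisense gene *Gm15283* and 148 bp with *Gm49321* in the GENCODE M21 annotation, and counting was without strand, so reads from these stretches cannot be assigned to one gene with certainty.

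*Epas1* encodes HIF-2α, the alpha subunit best known from endothelial cells. The gene is on the plus strand of chromosome 17 from 86753864 to 86833410, with 16 exons and 5352 bp. In control hearts it ranged from 490.4 to 618.9 CPM with a median of 600.6, and in IDA hearts from 325.2 to 585.8 CPM with a median of 449.3. All but 1 of the IDA hearts were below the lowest control. The means were 582.3 ± 41.3 and 436.3 ± 74.4 CPM (SD, n = 10 each), and the log2 fold change was -0.42 (SE 0.08, adjusted p = 6.33e-05, edgeR). With the gene length correction it was -0.15 (adjusted p = 0.0516, edgeR), just outside the threshold, whereas -0.20 with GC content also corrected was called (adjusted p = 0.0144, edgeR), as was -0.17 with length and the run of library numbers (described with *Hif3a*) both in the fit (adjusted p = 0.0333, edgeR). Of 12 listed endothelial markers in the same hearts, 8 were called higher and 3 lower, or 5 and 2 with the gene length correction, beside 35.0% and 32.5% of all tested genes, or 24.6% and 29.5%. Their median log2 fold change was 0.19, and 0.02 with the correction, and their summed level was 2393 to 2562 CPM in the control group and 2436 to 2707 CPM in the IDA group. The part of endothelial cells in the *Epas1* result was not tested. In whole heart, fewer cells of a type and less RNA per cell cannot be told apart.

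*Hif3a* encodes a further alpha subunit with splice forms that can oppose the others. Its position is on the minus strand of chromosome 7 from 17030993 to 17062427, with 16 exons and 7019 bp, and was measured with only 6 to 78 read pairs per heart. It ranged from 2.85 to 9.72 CPM (median 5.51) in control hearts and from 0.746 to 7.17 CPM (median 3.55) in IDA hearts. The log2 fold change was -0.83 (SE 0.32, adjusted p = 0.0256, edgeR), and with the gene length correction -0.43 (adjusted p = 0.24, edgeR). Leaving out a mouse from each group kept the call in 70 of 100 such fits.

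The fall of *Hif3a* was not shared by all IDA hearts. The library numbers in the column names form 2 separate runs, a high run of 5 control and 3 IDA hearts and a low run of 5 control and 7 IDA hearts, whose meaning is not given in the labels. In the high run, the 3 IDA hearts had 0.746, 0.794 and 1.18 CPM against 2.85 to 7.36 in control hearts, a log2 fold change of -2.67 (adjusted p = 0.00207, edgeR). In the low run it was -0.44 (adjusted p = 0.245, edgeR). The difference between the runs was 2.22 with an unadjusted p of 0.000964, but an adjusted p of 0.198 over all genes (edgeR), so it did not pass the threshold. By their titles, IDA hearts 1 to 5 had at most 3.12 CPM and IDA hearts 6 to 10 at least 3.98 CPM, a grouping noticed after the values were seen and not tested.

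*Arnt* encodes HIF-1β, the shared partner of the alpha subunits. It lies on the plus strand of chromosome 3 from 95434390 to 95497239, with 22 exons and 4369 bp. Control hearts ranged from 124.5 to 152.4 CPM (median 145.7) and IDA hearts from 95.3 to 126.8 CPM (median 98.4). All 10 IDA hearts were below the control mean and 9 were below the lowest control. The means were 142.8 ± 9.62 and 104.5 ± 11.5 CPM (SD, n = 10 each), and the log2 fold change was -0.45 (SE 0.06, adjusted p = 6.31e-07, edgeR). *Arnt* was the only subunit called with the gene length correction, at -0.28 (adjusted p = 9.5e-06, edgeR). The values were similar in both library-number runs, with -0.48 in the high run (adjusted p = 0.00306, edgeR) and -0.45 in the low run (adjusted p = 0.00033, edgeR).

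*Egln1* encodes PHD2, the main prolyl hydroxylase acting on HIF-1α under normal oxygen. It maps to the minus strand of chromosome 8 from 124908587 to 124949254, with 5 exons and 3524 bp. It ranged from 408.3 to 504.6 CPM (median 452.8) in control hearts and from 427.5 to 514.2 CPM (median 480.3) in IDA hearts, so the groups overlapped, with 8 of 10 IDA hearts above the control mean. The log2 fold change was 0.07 (95% interval -0.02 to 0.15, adjusted p = 0.159, edgeR). With the gene length correction it was 0.14 (adjusted p = 0.0113, edgeR) and the gene was called higher. With GC content also corrected it was -0.004 (adjusted p = 0.953, edgeR). With log2 library size as a covariate instead of these corrections it was -0.035 (adjusted p = 0.295, edgeR), so the call of *Egln1* depends on the setting. Its counts lay between 3248 and 3763 read pairs in all 20 hearts. Their means were 3492.2 in control and 3434.4 in IDA hearts, whose libraries had a smaller median total. The authors removed duplicate reads, and the highest gene of each heart had 2.06 to 2.39 read pairs per exonic base, while *Egln1* had 0.991 in control and 0.9746 in IDA hearts. Whether duplicate removal narrowed its differences was not tested.

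*Egln2* encodes PHD1, a mainly nuclear prolyl hydroxylase. The gene is on the minus strand of chromosome 7 from 27158658 to 27166802, with 6 exons and 2107 bp, and is the shortest of the group. Its level was 115.1 to 133.3 CPM (median 127.9) in control hearts and 136.2 to 176.8 CPM (median 156.9) in IDA hearts, with no overlap. The means were 125.5 ± 6.04 and 158.8 ± 14.3 CPM (SD, n = 10 each). The log2 fold change was 0.34 (SE 0.05, adjusted p = 2.09e-06, edgeR), and with the gene length correction 0.18 (adjusted p = 0.000244, edgeR). A correction for length together with GC content brought it to -0.01 (adjusted p = 0.723, edgeR), so the rise of *Egln2* depends on that setting. Its exons share 11 bp with *Cyp2t4* on the other strand.

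*Egln3* encodes PHD3, which is itself a known HIF target and the prolyl hydroxylase most strongly induced by low oxygen in many tissues. It lies on the minus strand of chromosome 12 from 54178981 to 54203874, with 5 exons and 2676 bp. Control hearts ranged from 122.4 to 183.3 CPM (median 159.3) and IDA hearts from 208.6 to 315.1 CPM (median 254.1). The lowest IDA heart was above the highest control heart. The means were 158.2 ± 16.4 and 264 ± 31.2 CPM (SD, n = 10 each), a 1.67-fold difference with a log2 fold change of 0.74 (SE 0.07, adjusted p = 1.45e-07, edgeR). Here the correction changed little, since genes of its length had a trend of only 0.06. It gave 0.68 (adjusted p = 4.79e-07, edgeR). The log2 fold change was 0.73 in the high and 0.78 in the low library-number run (adjusted p = 0.00138 and 5.39e-05, edgeR).

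*Hif1an* encodes FIH, the asparaginyl hydroxylase. It maps to the plus strand of chromosome 19 from 44562854 to 44576274, with 8 exons and 6190 bp. Control hearts had 221.8 to 269.6 CPM (median 259.9) and IDA hearts 171 to 217.8 CPM (median 201.2), with no overlap. The log2 fold change was -0.34 (SE 0.05, adjusted p = 1.98e-06, edgeR). The length trend at 6190 bp was also -0.34, and the corrected value was 0.002 (95% interval -0.05 to 0.06, adjusted p = 0.945, edgeR).

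*Vhl* encodes the part of the ubiquitin ligase that recognises hydroxylated HIF. It lies on the plus strand of chromosome 6 from 113624021 to 113631633, with 3 exons and 2730 bp. It ranged from 34.0 to 40.9 CPM (median 36.5) in control hearts and from 33.8 to 45.3 CPM (median 40.0) in IDA hearts, which overlapped. The log2 fold change was 0.13 (SE 0.05, adjusted p = 0.0347, edgeR) with 8 of 10 IDA hearts above the control mean. With the gene length correction it was 0.08 (adjusted p = 0.17, edgeR), with length and GC content corrected 0.16 (adjusted p = 0.0117, edgeR), and only 37 of 100 fits that left out a mouse from each group called it.

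**Figure D3:**
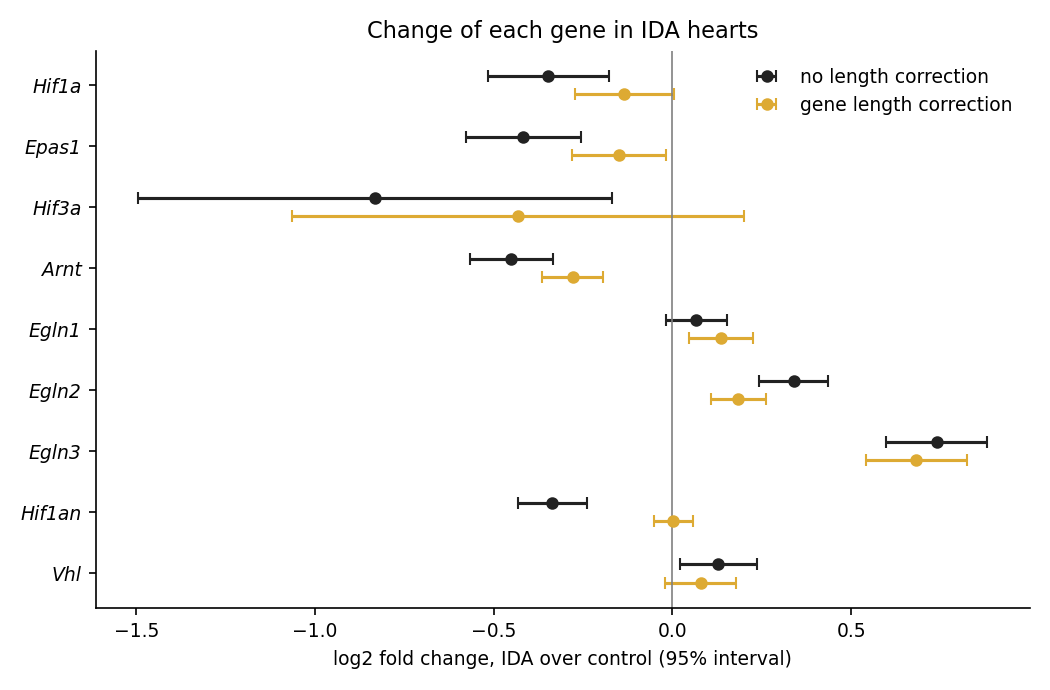
Log2 fold change (IDA over control, x axis) of each gene with its 95% interval, without (black) and with (yellow) the gene length correction. Intervals of *Epas1*, *Arnt*, *Egln2* and *Egln3* exclude 0 in both fits, though *Epas1* did not pass after adjustment over all genes (adjusted p = 0.0516), while the point of *Hif1an* moves from -0.34 to 0.002.

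Within the library-number runs, *Hif1a* had a log2 fold change of -0.22 in the high run (adjusted p = 0.179, edgeR) and -0.43 in the low run (adjusted p = 0.00172, edgeR). *Epas1* was called in both, at -0.62 and -0.34, but with the gene length correction it was called in the high run only, at -0.35 (adjusted p = 0.00945, edgeR), against -0.06 in the low run (adjusted p = 0.556, edgeR). The difference between these values did not pass the test (adjusted p = 0.642, edgeR). *Egln1* had -0.03 in the high and 0.15 in the low run (adjusted p = 0.70 and 0.0197, edgeR). *Egln2* (0.32 and 0.34) and *Hif1an* (-0.35 in both) were called in each run, and *Vhl* (0.16 and 0.11) in neither.

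Levels were compared between genes per kb of exon. In control hearts the order was *Egln1* (129.6 CPM per kb), *Epas1* (108.8), *Egln2* (59.6), *Egln3* (59.1), *Hif1an* (40.6), *Hif1a* (40.5), *Arnt* (32.7), *Vhl* (13.4) and *Hif3a* (0.817). *Egln2* was above *Egln3* in 5 of 10 control hearts and *Hif1an* above *Hif1a* in 6 of 10, so these neighbours could not be ordered, while each other gene was above the next in 10 of 10. In IDA hearts, *Egln3* (98.6 CPM per kb) stood in second place behind *Egln1* (135.8), ahead of *Epas1* (81.5) in 8 of 10 hearts. After the correction for length, *Egln3* (96.8) was above *Epas1* (89.2) in only 5 of 10, so these 2 genes could not be ordered. Without it, *Epas1* was above *Egln2* (75.4) in 7 of 10, and *Hif1an* (32.2) above *Hif1a* (31.8) in 5 of 10. *Arnt* (23.9), *Vhl* (14.7) and *Hif3a* (0.467) kept the last places in all hearts. Of the summed level of the prolyl hydroxylases per kb, *Egln3* made up 23.8% in control and 31.8% in IDA hearts, *Egln1* 52.2% and 43.8%, and *Egln2* 24.0% and 24.4%. The share of *Egln3* was 24.1% and 31.5% with the gene length correction. Whether duplicate removal narrowed the level of *Egln1*, and so moved these shares, was not tested. Among the alpha subunits, *Epas1* made up 72.5% and 71.5%.

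**Figure D4:**
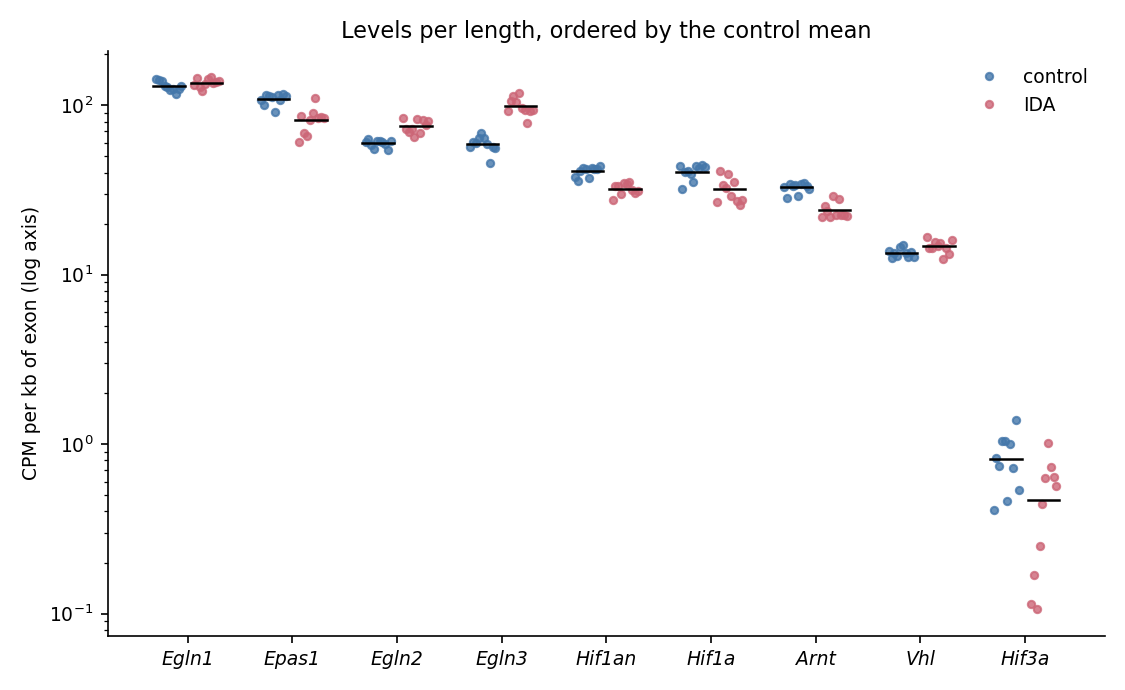
Level of each gene in CPM per kb of exon (log axis) in each control (blue) and IDA (red) heart, ordered by the control mean, with group means as black lines. *Egln3* moves from 59.1 to 98.6, and *Hif3a* is lowest in both groups.

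Ratios between 2 genes within a heart do not depend on library scaling, though they can depend on depth through duplicate removal. Counts of *Egln1* lay between 3248 and 3763 read pairs in all hearts, while the median total was smaller in IDA hearts. How far this shaped the ratios to *Egln1* was not tested. The diets were compared for 5 ratios by a two-sided permutation test with 100000 resamples, adjusted over the 5. The log2 ratio of *Egln3* to *Egln1* was 0.67 higher in IDA hearts (adjusted p = 1e-04 by permutation, the smallest possible here), and the ratio itself was 0.454 in control and 0.723 in IDA hearts. All 10 IDA hearts were above the highest control heart, and the gene length correction left a difference of 0.54 with the same p. The log2 ratio of *Egln2* to *Egln1* was 0.27 higher (adjusted p = 0.001 by permutation) and only 0.05 higher with the correction (adjusted p = 0.397 by permutation).

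No ratio to *Hif1a* passed the test over all hearts. The log2 ratio of *Epas1* to *Hif1a* was 1.43 ± 0.10 in control and 1.36 ± 0.31 in IDA hearts (SD, n = 10 each; adjusted p = 0.48 by permutation). Its spread was wider in IDA hearts. By their titles, IDA hearts 1 to 5 had log2 ratios from 1.01 to 1.19 and IDA hearts 6 to 10 from 1.59 to 1.74, the former below the lowest control heart (1.30), which was again noticed after the values were seen and not tested. Within the high library-number run the difference was -0.39 (adjusted p = 0.0446 by exact permutation) and within the low run 0.10 (adjusted p = 0.863 by exact permutation). The log2 ratio of *Hif3a* to *Hif1a* differed by -0.72 over all hearts (adjusted p = 0.146 by permutation), by -2.39 in the high run (adjusted p = 0.0446 by exact permutation) and by 0.03 in the low run (adjusted p = 0.932 by exact permutation). That of *Arnt* to *Hif1a* differed by -0.10 (adjusted p = 0.146 by permutation). Both high-run values of 0.0446 by exact permutation rest on the smallest p possible with 5 control and 3 IDA hearts. The runs were examined after the values were seen.

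**Figure D5:**
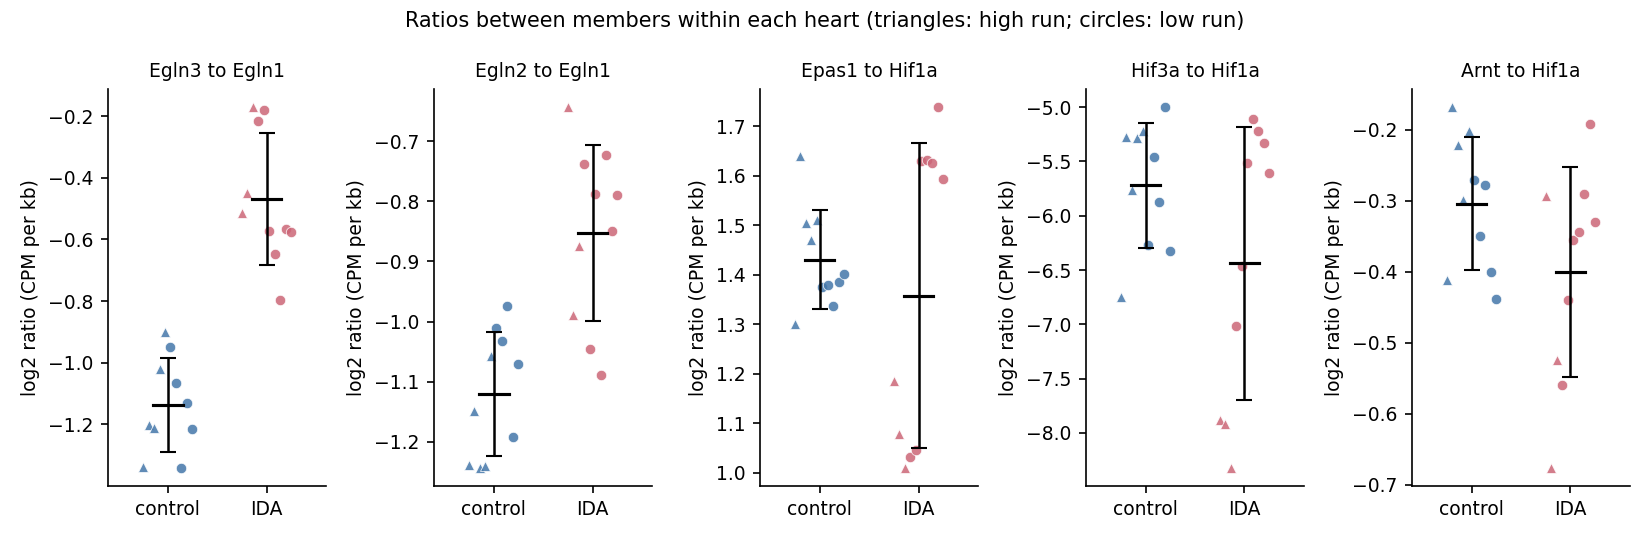
Log2 ratio of CPM per kb between 2 genes in each heart, with mean and SD as black bars (y axes differ between panels and do not start at 0). *Egln3* to *Egln1* separates the groups, and the IDA hearts form 2 clusters for *Epas1* to *Hif1a*, from 1.01 to 1.19 and from 1.59 to 1.74.

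Of 30 listed partners and regulators of HIF, 29 were tested, 12 were called higher, 8 lower and 9 not called, beside 35.0% higher and 32.5% lower among all tested genes. With the gene length correction, 4 were called higher and 10 lower, beside 24.6% and 29.5%. The VHL protein works in a ligase with elongins, a cullin and a RING protein. Of these subunits, *Tceb2* (elongin B) rose by 0.37 on the log2 scale, *Rbx1* by 0.23 and *Tceb1* (elongin C) by 0.18, and *Cul2* fell by 0.13 (adjusted p = 5.93e-06, 0.000378, 0.0038 and 0.00965, edgeR). With the correction only *Tceb1* was called, and in the opposite direction, at -0.17 (adjusted p = 0.00207, edgeR). Without the correction, the largest rises among called partners were those of *P4htm*, a membrane-bound prolyl hydroxylase, at 0.40 (0.20 with the correction, adjusted p = 0.00705, edgeR), and of *Cited4*, a CREBBP-binding protein, at 0.38 (0.07 with the correction, adjusted p = 0.562, edgeR).

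Without the correction, the largest falls were those of *Crebbp* and *Ep300*, coactivators that HIF recruits, with *Clock* (-0.996) and *Ncoa2* (-0.99) close to the latter. *Crebbp* fell from 65.0 ± 17.8 to 26.9 ± 7.95 CPM (SD, n = 10 each), a log2 fold change of -1.28 (adjusted p = 1.56e-06, edgeR), and *Ep300* from 153 ± 30.3 to 76.5 ± 18.0 CPM, at -1.002 (adjusted p = 8.31e-07, edgeR). Both are long transcripts, and with the gene length correction the values were -0.85 and -0.50, still called (adjusted p = 1.61e-05 and 1.8e-05, edgeR), and *Clock* (-0.57) and *Ncoa2* (-0.53), named after their values were seen, then fell more than *Ep300*. All 10 IDA hearts were below the control mean for both.

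Of 53 listed HIF target genes, 49 were tested, of which 29 were called higher, 9 lower and 11 not called, beside 35.0% higher and 32.5% lower among all tested genes, with a median log2 fold change of 0.20. With the gene length correction, 21 were called higher and 6 lower, beside 24.6% and 29.5%, and the median was 0.10. The targets with the smallest p among those higher were *Pfkl* (a glycolytic phosphofructokinase) at 0.47, *Ndufa4l2* (a mitochondrial protein induced by low oxygen) at 0.60, *Ankrd37* at 0.99 and *Cox4i2* (a subunit of cytochrome oxidase) at 0.73. All 4 remained called with the correction, at 0.57, 0.25, 0.63 and 0.33. *Ankrd37* had 7.14 ± 0.984 CPM in control and 14.2 ± 2.71 CPM in IDA hearts (SD, n = 10 each). These did not overlap, though how many tested genes lack overlap was not counted.

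Those with the smallest p among the lower targets were *Nos2* (inducible nitric oxide synthase) at -0.81, *Flt1* (a VEGF receptor) at -0.54, *Plod2* (a collagen lysyl hydroxylase) at -0.53 and *Rora* (a nuclear receptor) at -1.79. They stayed called with the correction, at -0.67, -0.20, -0.44 and -2.04. *Ldha* (lactate dehydrogenase A) rose by 0.22 (adjusted p = 0.000172, edgeR) but had 0.03 with the correction (adjusted p = 0.493). *Pdk1*, a kinase that inhibits pyruvate dehydrogenase, fell by 0.11 (adjusted p = 0.029, edgeR) and was called higher at 0.14 with the correction (adjusted p = 0.00279). *Vegfa* (vascular endothelial growth factor) was not called in either fit, at -0.07 and 0.08 (adjusted p = 0.23 and 0.132, edgeR). *Slc2a1* (a glucose transporter) rose by 0.31 (adjusted p = 0.00892, edgeR), and had 0.24 with the correction (adjusted p = 0.0519).

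Red cell markers moved with the diet in the same hearts. The globin genes *Hba-a1*, *Hba-a2* and *Hbb-b2* had no counts in any heart. Whether these zeros reflect the RNA or the way reads were counted was not tested. *Alas2*, the first enzyme of heme synthesis in red cells, was called higher with a log2 fold change of 1.42, and *Slc4a1*, the anion exchanger of the red cell membrane, at 4.04 (adjusted p = 9.1e-07 and 2.21e-06, edgeR). The erythroid list had 10 genes in the table, 4 of them without counts in any heart. Its summed level was 51.6 to 125.5 CPM in control and 135.5 to 580.3 CPM in IDA hearts. The mean log2 CPM of the tested markers ran from 1.76 to 3.18 in control and from 3.76 to 7.15 in IDA hearts, with no overlap. A fit with this mean as a covariate therefore cannot separate red cell content from diet. In that fit, *Egln3* had 0.60 (adjusted p = 0.000316, edgeR) and *Arnt* -0.59 (adjusted p = 0.000169, edgeR). *Hif3a* and *Vhl* were then not called (adjusted p = 0.334 and 0.0564, edgeR). The summed levels of the cardiomyocyte markers were 5603 to 6666 CPM in control and 4993 to 6894 CPM in IDA hearts, and those of fibroblast, mural and leukocyte markers also overlapped between the groups. After duplicate removal, the highest gene of each heart had only 2.06 to 2.39 read pairs per exonic base. Abundant cardiomyocyte markers such as *Myl2* (175.8 CPM in control hearts, 633 bp) lie near this limit. Whether it held their sums level was not tested.

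The genes most like each member were found from the correlation of their deviations from the group means over the 20 hearts, after the gene length correction. They are a description, since they were chosen for their likeness, and the hearts share library and depth effects. *Egln1* had the closest neighbours, *Hspa9* and *Sdha* (Pearson's r = 0.97 and 0.96). *Hif1a* was followed by *Itga6* and *Slc4a7* (0.91 and 0.90), *Epas1* by *Vegfb* and *Ndufs8* (0.93 and 0.92), *Hif3a* by *Sult1a1* and *Midn* (both 0.92), and *Arnt* by *Mllt10* and *Agfg1* (0.89 and 0.88). *Egln2* was followed by *Bap1* and *Abcf1* (0.92 and 0.90), *Egln3* by *Ccdc43* and *Gimap4* (0.82 and 0.77), *Vhl* by *Tubb6* and *8430419L09Rik* (0.79 and 0.78), and *Hif1an* by *Mrpl47* and *U2af1l4* (0.74 and 0.70). Without the correction, r was -0.40 and -0.48 for the neighbours of *Hif1an* and 0.38 and 0.24 for those of *Epas1*.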

How the data were processed

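Cardiac poly(A) RNA from 20 mice was sequenced as 75-base-pair paired reads. STAR was used by the authors for alignment to mm10, duplicate reads were then removed, and featureCounts (version 1.4.5-p1) counted pairs on exons without strand. They deposited these raw counts for 23420 genes, with exonic lengths. The labels gave the diet of each mouse, and titles matched columns to mice.

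Counts were normalized by TMM and tested with edgeR (version 4.0.16, R 4.3.3) by its quasi-likelihood test with diet as the only factor, over the 13590 genes that reached 1 CPM in 10 or more mice. P-values were adjusted by Benjamini-Hochberg over all tested genes and called below 0.05. The gene length correction fitted the deviations of a mouse against log2 length by loess (span 0.5, degree 1) and entered the curve as offsets. It removes any trend on length, technical or biological. Totals were 6682177 to 8960688 read pairs per mouse. *Hif3a*, with only 6 to 78 read pairs per heart, had the largest standard error of the members (0.32). Ratios used permutation tests with 100000 resamples.

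The members and lists were chosen with earlier results of these data known. Named were all members, the VHL ligase subunits, the 2 called partners with the largest log2 fold change in each direction, the 4 called targets with the smallest p in each direction with *Ldha*, *Pdk1*, *Vegfa* and *Slc2a1*, and the 2 genes closest to each member. Others were named after their values were seen. Alternatives were DESeq2 (version 1.42.0), other scalings and filters, covariates, corrections for length and GC content (GC known for 94.0% of tested genes), the replicate number as a block, and omission of mice. The scripts were tested on simulated data. Library-number runs were added after seeing the data. Some listed marker genes are not reported here.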

Additional observations from a re-analysis of the deposited data

How the results depend on the processing

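*Egln3* and *Arnt* kept their direction and call under 16 of 16 alternatives, with log2 fold changes from 0.60 to 0.78 and from -0.59 to -0.18. The other genes did not, and the causes were not tested. Shares of all tested genes were counted only without correction and with the gene length correction. Under the other settings, counts of called members, partners or targets have no such share beside them. Those counts describe the setting and do not set these genes apart. With the gene length correction, *Hif1a* had -0.13 (adjusted p = 0.0957), *Epas1* -0.15, *Hif3a* -0.43, *Egln1* 0.14, *Hif1an* 0.0024 and *Vhl* 0.079, 1 member was called lower, 4 partners were called higher, and *Egln2* to *Egln1* had a log2 ratio difference of 0.045, while *Egln3* was above *Epas1* per kb in 5 IDA hearts and not 8, a setting added after seeing the data. With length and GC content corrected, *Hif1a* had 0.081, *Hif3a* -0.61, *Egln1* -0.0040, *Egln2* -0.015 and *Hif1an* 0.018, while *Epas1* (-0.20) and *Vhl* (0.16) were called, with 2 members lower, 3 partners higher and 19 targets higher. Upper-quartile scaling gave *Egln1* 0.094 (adjusted p = 0.0227), and no filter gave *Vhl* 0.13 (adjusted p = 0.0557). With library size as a covariate, *Hif3a* had -0.95 and *Egln1* -0.035. With the erythroid covariate, which did not overlap between the diets, *Hif3a* had -0.68 and *Vhl* 0.21, and 18 targets were higher.

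Same-numbered mice did not deviate together (r from -0.28 to 0.26, and 3 of 10 mice correlated best with their own number). With the replicate number as a block, *Vhl* had 0.13 (adjusted p = 0.0526) and no other member changed its call. With the replicate block and the gene length correction, *Hif1a* had -0.14, *Epas1* -0.16, *Hif3a* -0.50, *Egln1* 0.14, *Hif1an* 0.0021 and *Vhl* 0.076, with 1 member lower and 4 partners higher.

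Library-number runs were examined after seeing the data. Counts of calls in a run have no share of all tested genes beside them, and each run holds fewer hearts. With run as a covariate and the length correction, *Hif1a* had -0.13, *Hif3a* -0.63, *Egln1* 0.15, *Hif1an* -0.0019 and *Vhl* 0.083, while *Epas1* (-0.17) was called, with 2 members lower and 5 partners higher. In the high run alone, *Hif1a* had -0.22, *Egln1* -0.032 and *Vhl* 0.16, with 7 partners and 15 targets higher, and the log2 ratios to *Hif1a* were -0.39 for *Epas1* and -2.39 for *Hif3a*. In the low run alone, *Hif3a* had -0.44, *Egln1* 0.15 and *Vhl* 0.11, and the log2 ratios were 0.20 for *Egln2* to *Egln1*, 0.10 for *Epas1* to *Hif1a* and 0.032 for *Hif3a* to *Hif1a*. With the length correction in the high run, *Hif1a* had -0.015, *Hif1an* -0.0081 and *Vhl* 0.10, with 3 members lower, 2 partners higher and 12 targets higher. In the low run it gave *Epas1* -0.062, *Hif3a* -0.021, *Egln1* 0.22, *Hif1an* -0.0062 and *Vhl* 0.061, with 2 members lower, 3 partners higher and 5 targets lower.

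Leaving out mice, singly or one from each group, gave log2 fold changes of -0.43 to -0.30 for *Hif1a*, -0.50 to -0.37 for *Epas1*, -1.10 to -0.59 for *Hif3a*, -0.52 to -0.43 for *Arnt*, 0.027 to 0.10 for *Egln1*, 0.31 to 0.37 for *Egln2*, 0.66 to 0.80 for *Egln3*, -0.38 to -0.30 for *Hif1an* and 0.085 to 0.17 for *Vhl*. Members called were 2 to 3 higher and 4 to 5 lower, partners 12 to 14 and 8 to 9, and targets 26 to 30 and 7 to 12. *Hif3a* lost its call without control mouse 9 (-0.72, adjusted p = 0.0571), and *Vhl* lost its call in 8 of 20 single omissions (control mice 2, 4, 8 and 10 and IDA mice 1, 4, 6 and 10), with 0.094 and an adjusted p of 0.117 without IDA mouse 1. DESeq2 called the same members in the same directions. The log2 ratio differences were 0.64 to 0.71 for *Egln3* to *Egln1*, 0.24 to 0.29 for *Egln2* to *Egln1*, -0.12 to -0.035 for *Epas1* to *Hif1a*, -0.87 to -0.51 for *Hif3a* to *Hif1a* and -0.12 to -0.066 for *Arnt* to *Hif1a*.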
